A study of Mus musculus with 6 samples.

Results

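This section describes 10 genes of NAD salvage and NAD use in mouse liver: Nampt, Nmrk1, Naprt, Nmnat1, Nmnat3, Nadk, Nnmt, Sirt1, Sirt3 and Parp1. They are named by symbol for their roles in NAD production and use, a choice made with earlier results of these data known, and all 10 were found among the 15092 genes of the deposited table. Messenger RNA from liver was sequenced in 6 libraries, 3 labelled CRY1 KO and 3 labelled WT, all of the C57BL/6J strain and given as untreated. The labels name hepatocytes as the cell type and give no sorting, age, sex, feeding state or time of day. They do not say how the Cry1 allele was made, and every title carries the prefix NC, which is not explained. Nothing says that replicates were separate animals, so p-values measure the spread between these libraries, which may be technical.

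NAD is a redox cofactor that is also consumed as a substrate. Cells rebuild it from nicotinamide, from nicotinic acid and from nicotinamide riboside, and liver can also make it from tryptophan. Sirtuins are deacylases that split NAD, and PARP enzymes use it to add ADP-ribose to proteins. In mouse liver the salvage enzyme NAMPT is known as an output of the circadian clock, through CLOCK and BMAL1, which cryptochromes such as CRY1 repress. SIRT1 in turn is known to act on clock proteins.

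Total estimated counts lay between 79708703 and 87480152 in the libraries labelled CRY1 KO and between 83941470 and 91316332 in WT. Levels are given as CPM, estimated counts scaled to a common library size. For Cry1 they were 6.95, 6.41 and 5.22 CPM in CRY1 KO, against 4.80, 6.89 and 7.24 CPM in WT. The log2 difference was -0.03 (SE 0.19, edgeR adjusted p = 0.954). A gene total does not check the knockout labels, and each direction below is that of the labels. All 8 hepatocyte markers examined were present, with a summed level of 73890 to 83500 CPM in CRY1 KO and 67010 to 74600 CPM in WT. Markers of other liver cells were present too, so the samples are read here as liver tissue, in which fewer cells of a type and less RNA per cell cannot be told apart.

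Promoter windows were taken from RefSeq (build GRCm38.p6), each from 250 bases before a gene's start to 50 bases after it, and 8 of the 10 genes had at least 1, in 11 windows. Naprt and Nnmt had none. The E-box CACGTG, the letters bound by CLOCK and BMAL1, was searched on both strands, which read alike for this palindrome. It was found in 1 window each of Sirt1, Nadk and Parp1, and 7.15% of all 32851 windows of this length hold it. The E′-box CACGTT and the D-box, written as TTATGTAA or TTACGTAA, occurred in 0 of the 11 windows, on either strand, against 4.68% and 1.06% of all windows. The windows of Nampt, with the largest difference among the 10 genes, of Sirt1, with 2 E-boxes, and of Parp1, with 1, are printed 5′ to 3′ on the gene's strand, with E-boxes in capitals.
Nampt (chr12:32820085-32820384, plus strand): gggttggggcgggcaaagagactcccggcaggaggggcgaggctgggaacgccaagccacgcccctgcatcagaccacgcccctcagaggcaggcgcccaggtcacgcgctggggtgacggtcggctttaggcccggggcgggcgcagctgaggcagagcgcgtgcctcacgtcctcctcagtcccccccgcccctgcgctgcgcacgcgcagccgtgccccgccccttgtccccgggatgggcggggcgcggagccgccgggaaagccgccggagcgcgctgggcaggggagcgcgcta
Sirt1 (chr10:63338986-63339285, minus strand): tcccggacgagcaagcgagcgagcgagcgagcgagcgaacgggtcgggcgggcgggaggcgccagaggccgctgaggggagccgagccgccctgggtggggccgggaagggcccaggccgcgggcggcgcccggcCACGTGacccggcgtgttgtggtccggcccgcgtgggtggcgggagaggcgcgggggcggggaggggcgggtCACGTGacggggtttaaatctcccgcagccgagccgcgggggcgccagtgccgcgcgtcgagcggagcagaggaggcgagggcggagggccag
Parp1 (chr1:180568641-180568940, plus strand): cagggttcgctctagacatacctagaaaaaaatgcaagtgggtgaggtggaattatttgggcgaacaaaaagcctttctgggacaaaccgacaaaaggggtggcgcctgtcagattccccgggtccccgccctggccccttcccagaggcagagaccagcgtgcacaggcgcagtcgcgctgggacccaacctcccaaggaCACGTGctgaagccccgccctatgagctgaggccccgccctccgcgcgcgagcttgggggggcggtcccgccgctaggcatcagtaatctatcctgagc
The matches describe these windows alone, and no binding was measured.

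The salvage genes Nampt and Nmrk1 stood highest against WT, while the other members lay closer to it or varied too much within WT to read. Of the 10 genes 0 passed edgeR's quasi-likelihood test at an adjusted p under 0.05, where 1.7% of the 13816 tested genes did (1.06% higher and 0.644% lower). At an unadjusted p under 0.05 there were 5, where 20.7% of all tested genes were. DESeq2 called 3 of them (Nampt, Nmrk1 and Sirt1), where it called 9.29% of all tested genes, and limma called 0, where it called 1.6%. The levels of the groups did not overlap for 5 of the 10 genes (27.3% of all tested genes), 4 higher (14.6% of all tested genes) and 1 lower (12.7%) in CRY1 KO. The median log2 difference was 0.17 over the 10 genes and -0.02 over all tested genes.

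**Figure D1:**
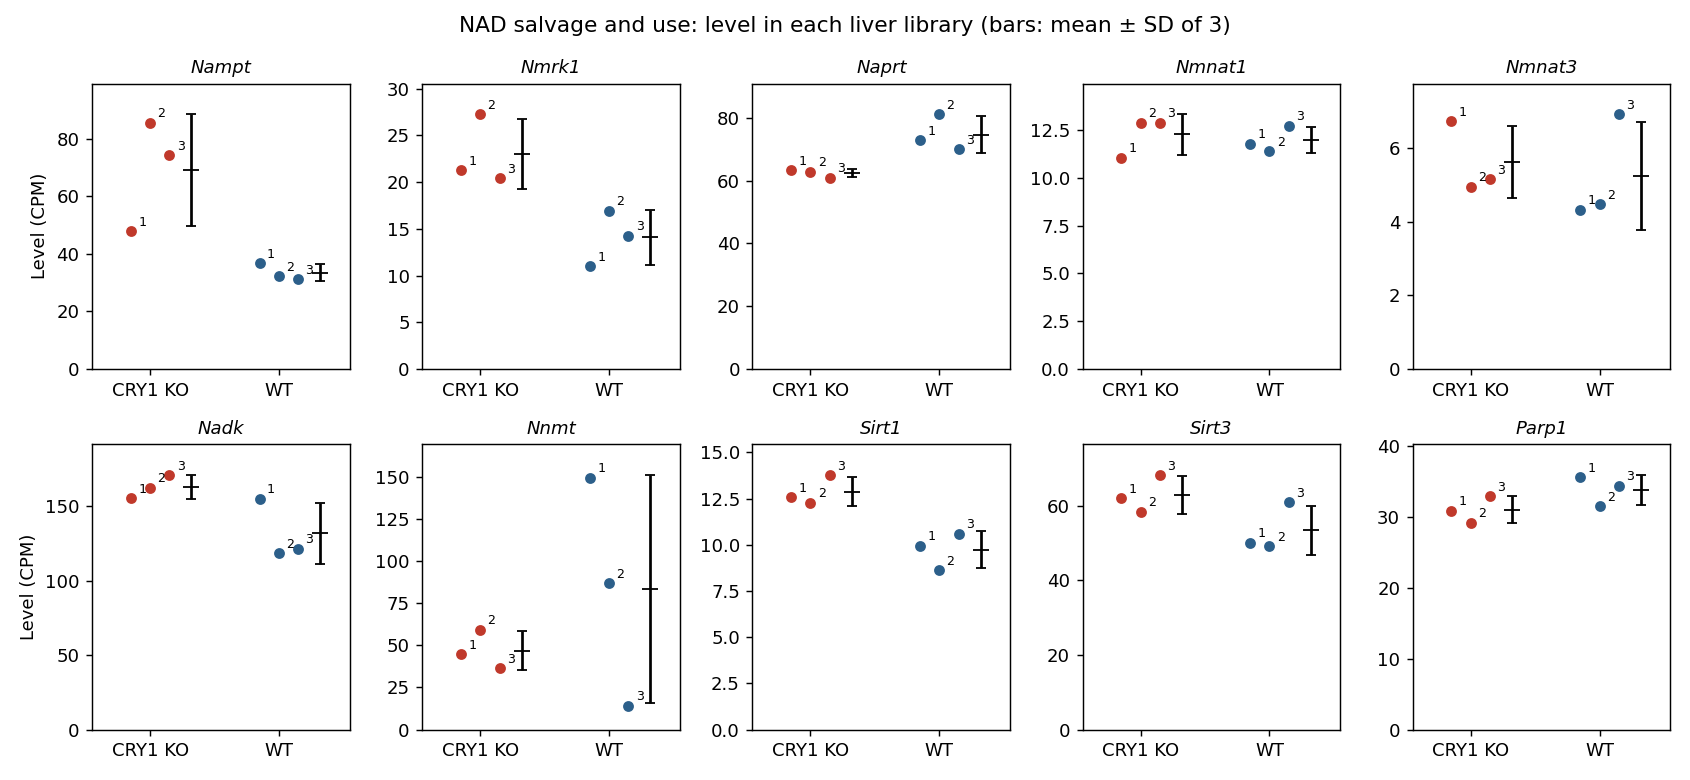
Level in CPM of each of the 10 genes in every library, CRY1 KO (red) left of WT (blue), with the replicate number beside each point and a black bar for the mean ± SD of 3. Nampt, Nmrk1, Nadk and Sirt1 stand higher in each CRY1 KO library than in any WT library, Naprt stands lower, and Nnmt spans 14.3 to 149.2 CPM within WT.

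Nampt encodes nicotinamide phosphoribosyltransferase, the rate-limiting enzyme that turns nicotinamide into nicotinamide mononucleotide. Its level was 47.8, 85.5 and 74.2 CPM in CRY1 KO, against 36.8, 32.3 and 31.1 CPM in WT. Every CRY1 KO library lay above every WT library, and CRY1 KO 1 lay nearer to WT 1 than to CRY1 KO 2 and 3. The means were 69.2 ± 19.3 CPM in CRY1 KO and 33.4 ± 2.99 CPM in WT (SD, n = 3 each), a 2.07-fold ratio (log2 1.05, SE 0.20, edgeR adjusted p = 0.0515). The adjusted p missed the threshold with all libraries, was 0.0168 without CRY1 KO 1 (log2 1.26) and reached 0.197 without WT 2. The 95% interval from limma ran from 0.55 to 1.48 on the log2 scale.

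The clock genes of the same libraries are set beside Nampt because its control by the clock is known. Per2, a clock repressor gene driven by E-boxes, stood at 23.3, 35.2 and 40.3 CPM in CRY1 KO 1, 2 and 3, against 9.38, 7.86 and 7.38 CPM in WT 1, 2 and 3. Arntl, which encodes BMAL1, stood at 5.20, 4.02 and 1.62 CPM in CRY1 KO and at 9.19, 12.2 and 14.7 CPM in WT. CRY1 KO 1 was the lowest of its group for Nampt and Per2 and the highest for Arntl. Among WT libraries, WT 1 was the highest for Nampt and Per2 and the lowest for Arntl. Other clock genes had other orders: WT 1 was the lowest of WT for Per3, Dbp and Nr1d1, and CRY1 KO 2 the lowest of its group for Per1 and Nr1d1. Over the 6 libraries, the profile of Nampt was nearest to those of Ugt1a6a, Lrrn4, Fchsd2, Adgrf1 and Mycl among 13806 other genes. The root mean square gap in centred log2 CPM was 0.12 for Ugt1a6a and 0.18 for Mycl. These genes were picked for likeness to Nampt in these same libraries. Their higher level in CRY1 KO therefore follows from the choice and is no separate result. Ugt1a6a shares exons with its gene cluster, so its value depends on how reads were assigned, and Lrrn4 lay below 0.77 CPM in every library. Fchsd2 averaged 28.3 ± 6.24 CPM in CRY1 KO and 15.3 ± 0.80 CPM in WT (SD, n = 3 each; log2 0.89, edgeR adjusted p = 0.0402).

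Nmrk1 encodes a kinase that makes nicotinamide mononucleotide from nicotinamide riboside, a second entry to the same product. It stood at 21.3, 27.3 and 20.4 CPM in CRY1 KO, against 11.0, 16.9 and 14.3 CPM in WT. The lowest CRY1 KO library lay above the highest WT library. The ratio was 1.63-fold (log2 0.71, SE 0.18, edgeR adjusted p = 0.0799), with a limma 95% interval of 0.30 to 1.13.

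Naprt, which encodes the enzyme that salvages nicotinic acid, was the one member whose groups separated in the other direction. It stood at 63.3, 62.8 and 61.0 CPM in CRY1 KO, against 72.8, 81.1 and 70.0 CPM in WT. The means were 62.4 ± 1.25 CPM in CRY1 KO and 74.6 ± 5.78 CPM in WT (SD, n = 3 each), with a log2 difference of -0.26 (SE 0.09) and an edgeR adjusted p of 0.147. The CRY1 KO libraries lay close together and below all of WT, and the test did not call this. The ratio of estimated counts of Nampt over Naprt, chosen after the values were seen and free of library scaling, was 0.755, 1.36 and 1.22 in CRY1 KO, against 0.505, 0.398 and 0.444 in WT. Since Nampt separated upward and Naprt downward, this ratio had to separate the groups and adds no support.

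Nmnat1 and Nmnat3 encode the nuclear and the mitochondrial adenylyltransferase that complete NAD from the mononucleotides. Nmnat1 stood at 11.1, 12.9 and 12.9 CPM in CRY1 KO, against 11.8, 11.4 and 12.7 CPM in WT (log2 0.04, SE 0.11, edgeR adjusted p = 0.88). Its groups overlapped, and the limma 95% interval of the log2 difference ran from -0.22 to 0.29. Nmnat3 stood at 6.73, 4.94 and 5.15 CPM in CRY1 KO, against 4.33, 4.47 and 6.91 CPM in WT (log2 0.10, SE 0.22, edgeR adjusted p = 0.835). WT 3 was the highest of all 6 libraries, and leaving out WT 3 gave log2 0.35, with an edgeR adjusted p of 0.276. Without WT 1, WT 2 or CRY1 KO 1 the sign turned, with log2 values of -0.02, -0.004 and -0.05.

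Nadk encodes the cytosolic kinase that makes NADP from NAD. Its level was 155.6, 162.5 and 171.2 CPM in CRY1 KO, against 155.2, 118.7 and 121.5 CPM in WT. WT 1 lay just under CRY1 KO 1, while WT 2 and WT 3 lay well below. With all libraries the log2 difference was 0.31 (SE 0.12, edgeR adjusted p = 0.194), and without WT 1 it was 0.44 (edgeR adjusted p = 0.0401). Since WT 1 lay nearest to CRY1 KO, leaving it out had to widen the gap. Without WT 2 the value was 0.24 (edgeR adjusted p = 0.463), and without WT 3 it was 0.25 (edgeR adjusted p = 0.236).

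**Figure D2:**
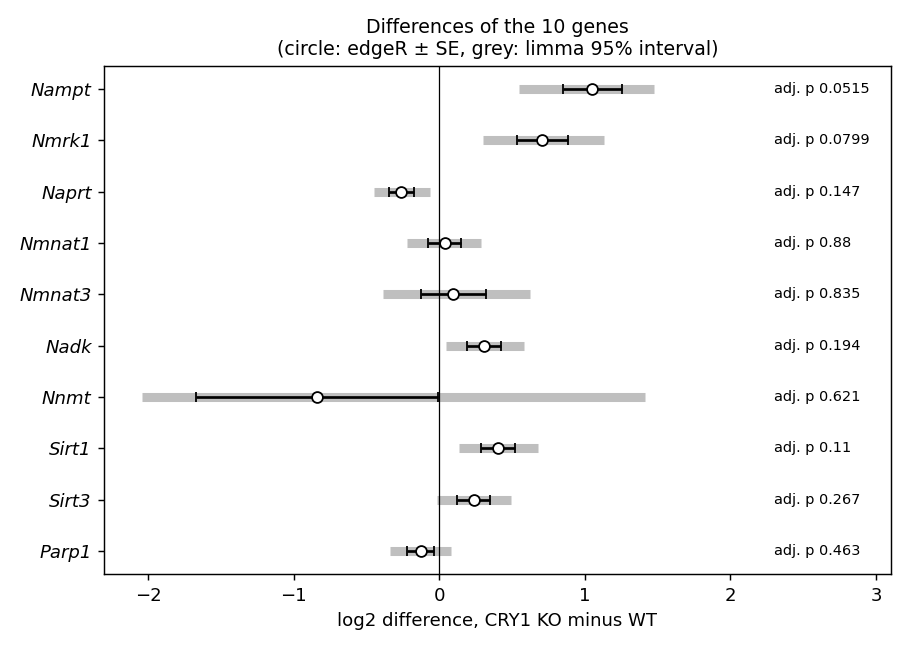
log2 difference of CRY1 KO minus WT for the 10 genes, as the edgeR estimate with its SE (circle and whisker) and the 95% interval from limma (grey bar). All circles are open because 0 of 10 passed the edgeR threshold, and the interval of Nnmt, from -2.04 to 1.41, is the widest.

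Among the NAD users, Sirt1 encodes the nuclear sirtuin, a deacetylase of transcription factors. Its level was 12.6, 12.3 and 13.8 CPM in CRY1 KO, against 9.97, 8.63 and 10.6 CPM in WT. The groups did not overlap, and the ratio was 1.32-fold (log2 0.40, SE 0.12, edgeR adjusted p = 0.11). DESeq2 called it, with an adjusted p of 0.0445.

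Sirt3 encodes the main mitochondrial deacetylase. It stood at 62.1, 58.4 and 68.3 CPM in CRY1 KO, against 50.1, 49.1 and 61.0 CPM in WT. WT 3 lay within the range of CRY1 KO, and the log2 difference was 0.24 (SE 0.11, edgeR adjusted p = 0.267). Parp1, which encodes the DNA-damage sensor that forms poly(ADP-ribose), stood at 30.9, 29.2 and 33.0 CPM in CRY1 KO, against 35.6, 31.6 and 34.4 CPM in WT. Its groups overlapped (log2 -0.13, SE 0.09, edgeR adjusted p = 0.463), and the limma 95% interval ran from -0.34 to 0.08. The ratio of estimated counts of Sirt1 over Parp1, also chosen after the values were seen, was 0.407, 0.421 and 0.418 in CRY1 KO, against 0.28, 0.274 and 0.308 in WT. Sirt1 alone already separated the groups and Parp1 averaged slightly lower in CRY1 KO, so this ratio adds no support either.

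Nnmt encodes the methyltransferase that removes nicotinamide as N-methylnicotinamide. It stood at 44.8, 59.1 and 36.2 CPM in CRY1 KO, against 149.2, 86.8 and 14.3 CPM in WT. Its highest WT library was 10.4 times its lowest, the widest spread of the 10 genes, while in CRY1 KO that ratio was 1.63. All CRY1 KO libraries lay between WT 2 and WT 3, so no difference could be read (log2 -0.84, SE 0.83, edgeR adjusted p = 0.621). Without WT 3 the log2 value was -1.33 (edgeR adjusted p = 0.0841), and without WT 1 it was -0.11 (edgeR adjusted p = 0.959).

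Markers of Kupffer cells, the resident macrophages of liver, had the same order within WT. All 9 markers were present, and their summed level was 226.8, 226.9 and 228.1 CPM in CRY1 KO, against 616.4, 394.9 and 246.4 CPM in WT 1, 2 and 3. Markers of red cells, 5 of 5 present, summed to 581 to 734.9 CPM in CRY1 KO and to 2972, 1024 and 654.2 CPM in WT 1, 2 and 3. Stellate markers, 6 of 6 present, summed to 138.8 to 169.4 CPM in CRY1 KO and to 179.5, 134.9 and 210.9 CPM in WT, and endothelial markers, 6 of 6, to 150.6 to 183.3 CPM in CRY1 KO and 162.9 to 170.7 CPM in WT. Neutrophil markers, 5 of 6 analysed, lay at 0.455 to 1.05 CPM in CRY1 KO and 1.15 to 3.98 CPM in WT, and 7 lymphoid markers at 3.16 to 4.46 CPM in CRY1 KO and 7.89 to 12.9 CPM in WT. Jchain, a plasma cell gene whose product links antibody units, stood at 1.51, 0.947 and 1.04 CPM in CRY1 KO, against 5.84, 4.12 and 9.23 CPM in WT. Without it the other 6 lymphoid markers overlapped between groups, at 2.95, 2.21 and 2.25 CPM in CRY1 KO and 2.06, 3.98 and 3.72 CPM in WT. Of the hepatocyte markers, Tat (2104.5, 783.4 and 557.0 CPM) and Hnf4a (479.1, 399.8 and 353.1 CPM) also descended over WT 1, 2 and 3, and the others did not. The part of any of these cell types in the spread of Nnmt was not tested. Adipoq, the one fat-cell marker analysed, was at 0 in all CRY1 KO libraries and in WT 2, and at 0.0581 and 0.0626 CPM in WT 1 and WT 3.

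**Figure D3:**
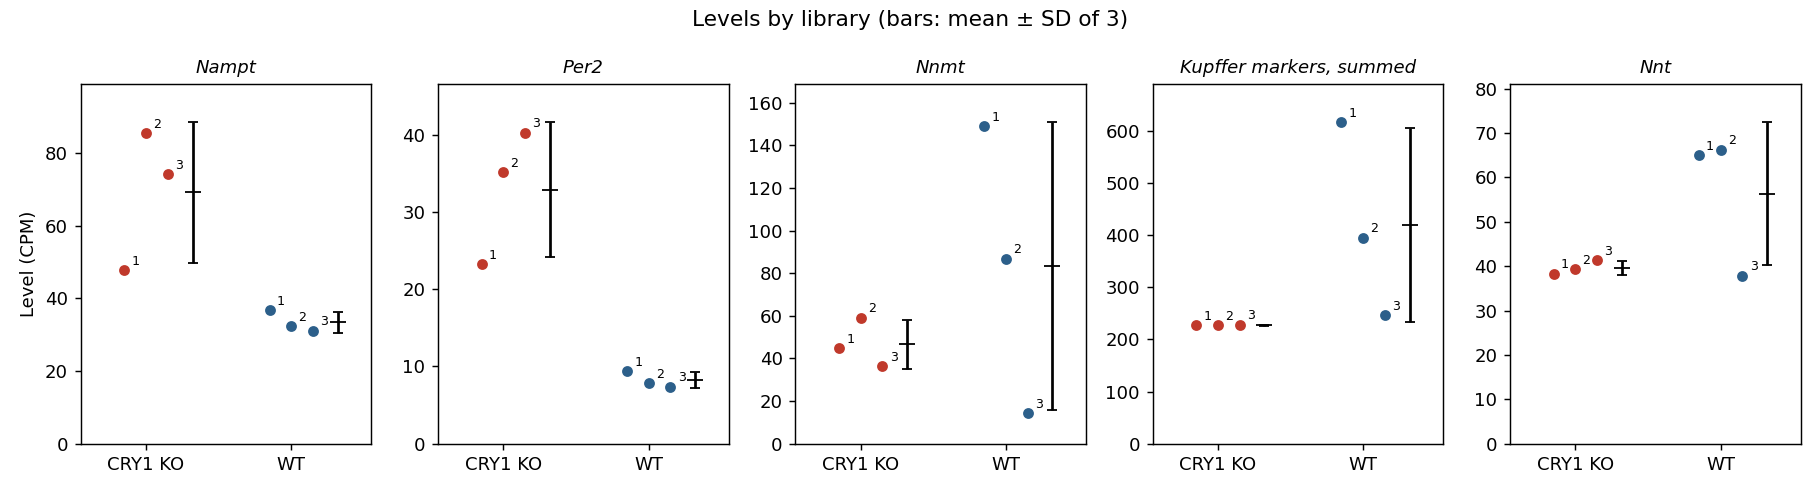
Levels in CPM by library of Nampt, Per2, Nnmt, the summed Kupffer markers and Nnt, CRY1 KO (red) left of WT (blue), numbered by replicate, with black bars for the mean ± SD of 3. CRY1 KO 1 is lowest of its group for Nampt and Per2, Nnmt and the Kupffer markers descend in the same order over WT 1, 2 and 3, and Nnt stands near 65 CPM in WT 1 and WT 2 and near 40 CPM elsewhere.

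Per kilobase of the longest protein-coding transcript in GENCODE M21, the 10 genes could be ordered by level only in part. In WT, Nnmt had 79.99 ± 64.7 CPM per kb, Nadk 41.8 ± 6.45, Naprt 39.3 ± 3.04 and Sirt3 33.3 ± 4.12 (SD, n = 3 each). Those neighbours lay within each other's spread. Parp1 had 8.74 ± 0.54 CPM per kb, Nampt 7.38 ± 0.66 and Nmrk1 7.25 ± 1.53, and Nmrk1 overlapped with both others. Nmnat1 (4.51 ± 0.26), Nmnat3 (2.42 ± 0.67) and Sirt1 (2.2 ± 0.23) were the lowest, with Nmnat3 and Sirt1 within their spread. In CRY1 KO, Nampt had 15.3 ± 4.27 and Nmrk1 11.8 ± 1.93 CPM per kb, above Parp1 at 8.01 ± 0.49. Nampt lay above Parp1 in all 3 CRY1 KO libraries and below it in all 3 WT libraries, while Nmrk1 and Parp1 had no resolved order in WT. These levels depend on which transcripts liver uses: with the shortest listed transcript, Nmnat1 in WT came to 9.67 CPM per kb and Nmrk1 to 10.4.

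The rest of NAD metabolism was read from 10 lists of 70 genes by role, of which 66 were tested. By edgeR 2 rose, Nudt12 and Foxo1, 0 fell and 64 did not pass, and the median log2 difference was -0.03. Of all tested genes 1.06% rose and 0.644% fell. By DESeq2 12 of the 66 passed, where 9.29% of all tested genes did, and by edgeR without robust estimation 1 did, where 1.19% of all tested genes did. Leaving out WT 1 gave 8 calls in the lists, where 4.04% of all tested genes were called, and leaving out WT 3 gave 10, where 6.04% were. There were 0 without WT 2 or any one CRY1 KO library.

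Nudt12 encodes a diphosphatase of peroxisomes that splits NADH and other nucleotides. It rose to 57.4, 54.2 and 53.1 CPM in CRY1 KO, against 35.2, 37.7 and 42.4 CPM in WT (log2 0.52, SE 0.10, edgeR adjusted p = 0.0407). The groups stood clear of each other, but the call was lost without scaling (edgeR adjusted p = 0.133), without robust estimation (edgeR adjusted p = 0.0518) and without WT 2 or any one CRY1 KO library, with adjusted p between 0.122 and 0.168. In the list of 6 breakdown enzymes, Nudt13 (log2 -0.20) and the NAD glycohydrolase gene Cd38 (-0.09) did not pass.

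In the list of 11 SIRT1 partners, Foxo1, a transcription factor of fasting that SIRT1 deacetylates, rose to 58.5 ± 2.53 CPM in CRY1 KO, against 29.7 ± 7.27 CPM in WT (SD, n = 3 each). Its log2 difference was 0.98 (SE 0.16) with an edgeR adjusted p of 0.0349. Its call was lost without WT 2 or any one CRY1 KO library, with edgeR adjusted p between 0.0863 and 0.152. Its relative Foxo3 (log2 0.62, edgeR adjusted p = 0.0719) and the bile acid receptor gene Nr1h4 (0.53, edgeR adjusted p = 0.0515) did not pass, and their groups did not overlap. Without WT 1 both passed (Foxo3 0.81, edgeR adjusted p = 0.00607, and Nr1h4 0.44, edgeR adjusted p = 0.0475). Ppargc1a then passed as higher (1.09, edgeR adjusted p = 0.0124) and Srebf1 as lower (-1.39, edgeR adjusted p = 0.00166). Both are named only because they passed without WT 1, which lay within the range of CRY1 KO for each. Neither passed with all libraries (Ppargc1a 0.67, edgeR adjusted p = 0.253, and Srebf1 -1.04, edgeR adjusted p = 0.24). Without WT 3, Nr1h4 passed as higher (0.62, edgeR adjusted p = 0.0231) and Nr1h3 as lower (-0.40, edgeR adjusted p = 0.0477). Nr1h3 did not pass with all libraries (-0.30, edgeR adjusted p = 0.179). With all libraries, 4 of the 11 partners had a positive and 7 a negative log2 difference. Of 9 genes whose proteins SIRT3 is known to deacetylate, 0 passed edgeR's test and 4 had an unadjusted p under 0.05, where 20.7% of all tested genes did. Sdha, a subunit of succinate dehydrogenase, averaged 447.9 ± 2.16 CPM in CRY1 KO and 355.5 ± 3.19 CPM in WT (SD, n = 3 each; log2 0.33, edgeR adjusted p = 0.0713). Otc, a urea cycle enzyme gene, had a log2 difference of 0.36 and Sod2, the mitochondrial superoxide dismutase gene, of 0.24.

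The other sirtuin genes lay near WT. Sirt2 had a log2 difference of 0.10, Sirt4 -0.03, Sirt5 -0.11, Sirt6 -0.07 and Sirt7 -0.09, and in each of these 5 the groups overlapped. Sirt1 and Sirt3 had larger differences than these 5, though differences between genes were not tested. Of 15 other genes of the PARP family and its hydrolase PARG, 0 passed edgeR's test and 8 had an unadjusted p under 0.05, where 20.7% of all tested genes did. Tiparp, which encodes a mono-ADP-ribosyltransferase induced by the aryl hydrocarbon receptor, had a log2 difference of 0.71 (edgeR adjusted p = 0.0622), Parp16, of the endoplasmic reticulum, 0.47, and Parp11, of the nuclear envelope, -0.71. Without WT 3, Parp16 passed as higher (0.62, edgeR adjusted p = 0.0201). Parp10 (-0.59, edgeR adjusted p = 0.03005) and Parp14 (-0.58, edgeR adjusted p = 0.03915) then passed as lower. For both, WT 3 lay within the range of CRY1 KO. Neither passed with all libraries (Parp10 -0.45, edgeR adjusted p = 0.148, and Parp14 -0.40, edgeR adjusted p = 0.276).

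**Figure D4:**
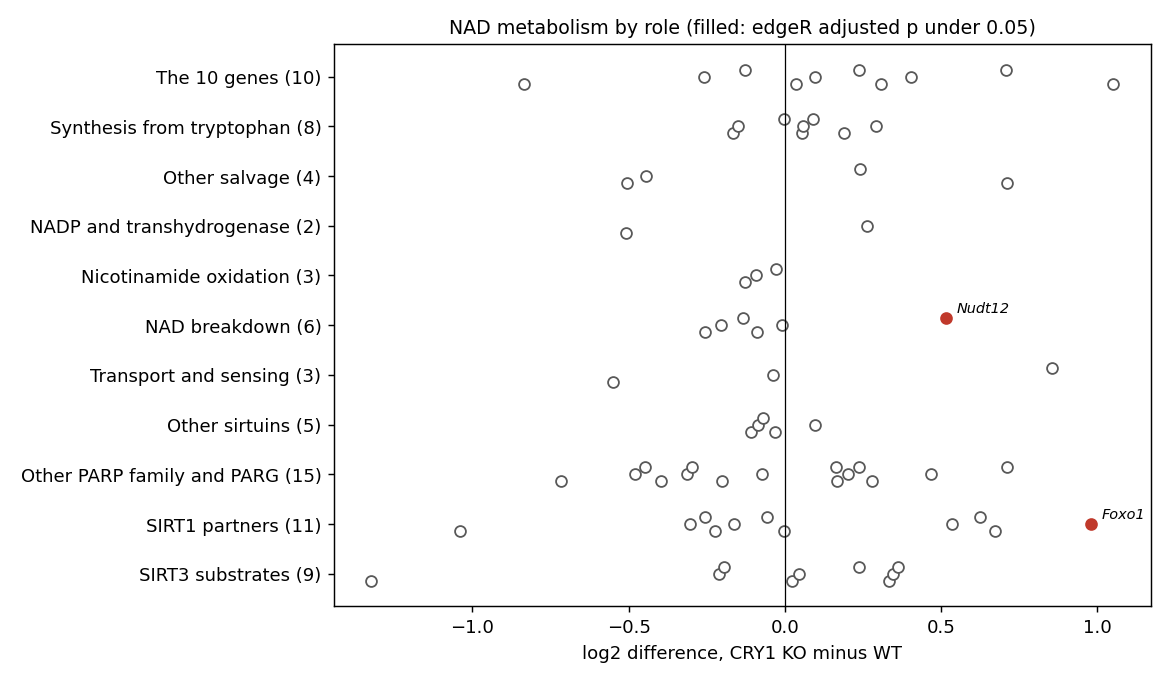
log2 difference of CRY1 KO minus WT for each tested gene, in rows by role with the number tested in brackets, filled where the edgeR adjusted p is under 0.05. Nudt12 and Foxo1 are the 2 filled points, and most others lie within 0.5 of 0.

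Of 8 genes listed for the route from tryptophan to NAD, 0 passed edgeR's test, also at an unadjusted p under 0.05. The first enzyme gene Tdo2 averaged 1405 ± 97.1 CPM in CRY1 KO and 1232 ± 71.8 CPM in WT (SD, n = 3 each; log2 0.19), Kynu had a log2 difference of 0.29 and Haao of -0.17. Acmsd, in this list although its enzyme diverts this route away from NAD, was singled out after its values were seen. It stood at 22.6, 28.6 and 21.5 CPM in CRY1 KO, against 47.2, 14.2 and 8.49 CPM in WT, a 5.56-fold range within WT. With all libraries its log2 difference was 0.06, and without WT 1, its highest library, it was 1.10 (edgeR adjusted p = 0.0496). The sign turned without WT 2 (-0.20, edgeR adjusted p = 0.931) and without WT 3 (-0.34, edgeR adjusted p = 0.76), so no direction could be read.

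Of 4 other salvage genes 0 passed edgeR's test and 1 had an unadjusted p under 0.05, beside the same 20.7%. That gene was Nadsyn1, which encodes NAD synthetase and had a log2 difference of 0.24. Pnp, a purine nucleoside phosphorylase gene with a near-identical neighbour, had -0.51, and Nt5e, which encodes the ectonucleotidase CD73, -0.45. Among 3 genes of nicotinamide oxidation, Cyp2e1 (-0.13), Aox3 (-0.09) and Aox1 (-0.03) had overlapping groups.

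Slc25a51 encodes the carrier that brings NAD into mitochondria. It stood at 75.4, 100.8 and 99.2 CPM in CRY1 KO, against 76.9, 37.3 and 38.2 CPM in WT. As for Nadk, WT 1 lay level with CRY1 KO and apart from WT 2 and WT 3. The log2 difference was 0.85 (SE 0.32, edgeR adjusted p = 0.212) with all libraries and 1.28 (edgeR adjusted p = 0.00311) without WT 1. Leaving out the WT library level with CRY1 KO had to widen the gap, and this adds no support. Without WT 2 the value was 0.67 (edgeR adjusted p = 0.422), and without WT 3 it was 0.69 (edgeR adjusted p = 0.31). In the same list, the niacin receptor gene Hcar2 (-0.55) and Slc12a8 (-0.04) lay below 1 CPM in every library.

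Nnt encodes the mitochondrial transhydrogenase that moves hydride between NADH and NADP, and C57BL/6J mice are known to carry a deletion within this gene. It stood at 38.3, 39.3 and 41.3 CPM in CRY1 KO, against 65.0, 66.3 and 37.8 CPM in WT. WT 1 and WT 2 stood apart from the other 4 libraries, and WT 3 lay beside CRY1 KO. The log2 difference was -0.51 (SE 0.20, edgeR adjusted p = 0.217) with all libraries and -0.73 (edgeR adjusted p = 0.00985) without WT 3. Since WT 3 lay beside CRY1 KO, leaving it out had to widen the gap, and this adds no support. Without WT 1 the value was -0.39 (edgeR adjusted p = 0.348), and without WT 2 it was -0.38 (edgeR adjusted p = 0.481). Each library had only a gene total for Nnt, with no values by exon, and the strain label is the same for all 6 libraries. Nadk2, the mitochondrial NAD kinase gene of the same list, averaged 146.4 ± 3.98 CPM in CRY1 KO and 122.0 ± 16.7 CPM in WT (SD, n = 3 each; log2 0.26, edgeR adjusted p = 0.219). It passed without WT 3 (0.38, edgeR adjusted p = 0.0395), the WT library nearest to CRY1 KO.

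**Figure D5:**
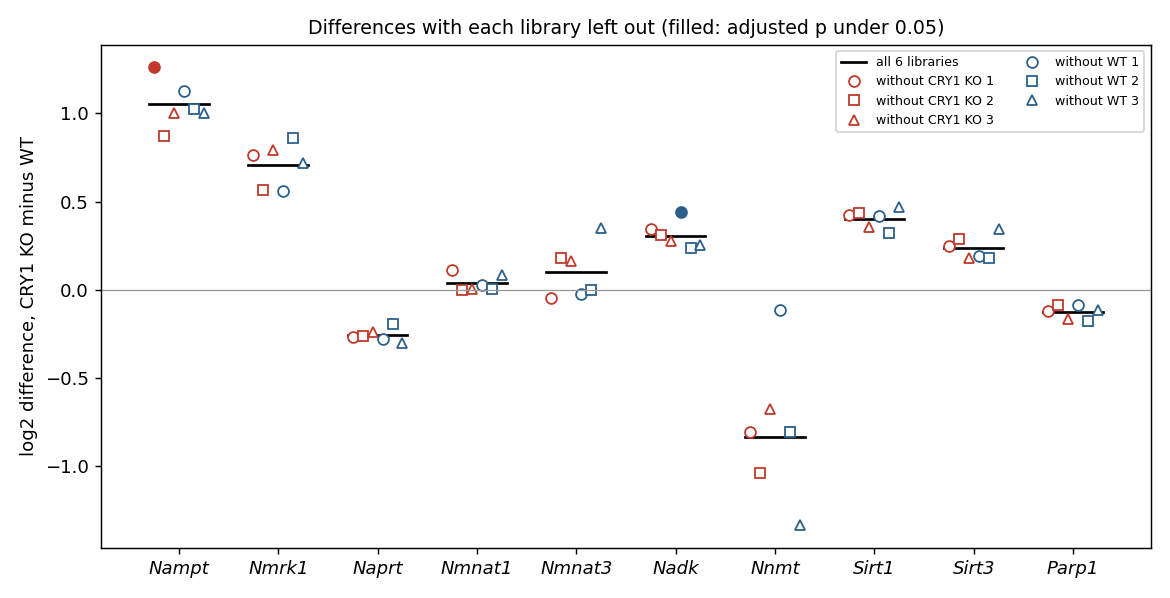
log2 difference of CRY1 KO minus WT for the 10 genes with all libraries (black line) and with each library left out (red for CRY1 KO, blue for WT; symbols for replicate 1, 2 and 3), filled where the edgeR adjusted p is under 0.05. Nampt is filled without CRY1 KO 1 and Nadk without WT 1, Nmnat3 crosses 0, and Nnmt runs from -1.33 to -0.11.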

How the data were processed

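Polyadenylated RNA of 6 mouse liver libraries was sequenced after phenol-chloroform extraction and a stranded kit, per the labels' protocols. The deposited table gives whole numbers per gene, taken here as estimated counts: the value 3 was more frequent than 1, 2 or 4 in every library. The submitters' processing notes name HISAT2 2.2.1, StringTie 2.1.7, limma 3.42.2 and Trim Galore 0.6.7, and the build GRCm39. Annotation, strand setting and order of steps are not given in the sources used. Columns were matched to samples by title.

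Low genes were removed by filterByExpr of edgeR 4.0.16, with a minimum count of 10 and a minimum total of 15; 13816 genes stayed and 1276 did not. Libraries were scaled by TMM and compared with the robust quasi-likelihood test, Benjamini-Hochberg adjusted over all tested genes, at 0.05. Levels are CPM. limma 3.58.1 on log2 CPM (prior count 2) gave 95% intervals, and DESeq2 1.42.0 was an alternative. In simulated counts for this comparison with 13581 genes in the fit, 20.9% of planted 1.5-fold, 73.1% of 2-fold and 90.9% of 4-fold changes were recovered, and 15 of 138 calls were not planted. The members, lists and rule for named genes (all members, called list genes, up to 3 per list by p, the 5 profiles nearest to Nampt) were chosen with earlier results of these data known.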

Additional observations from a re-analysis of the deposited data

How the results depend on the processing

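All genes gave 235 calls, the 10 members 0 and the pathway lists 2. Without scaling beyond the library total these counts were 113, 1 (Nampt) and 1. By DESeq2 they were 1284, 3 and 12, and with the replicate block 94, 0 and 0. Without robust estimation the lists gave 1. Leaving out a library gave 17 to 844 calls over all genes (565, 17 and 844 without WT 1, 2 and 3, and 40, 20 and 30 without CRY1 KO 1, 2 and 3), 0 to 1 among the members (Nadk without WT 1, Nampt without CRY1 KO 1) and 0 to 10 in the lists. Fewer libraries also mean less power. Of 140 member values under 14 alternatives each, 131 kept their direction and side of the threshold, 6 passed it and 3 changed sign. Those 3 were Nmnat3, whose values with a library left out ran from -0.049 to 0.35. Nampt ran from 0.87 to 1.26 over its alternatives, with adjusted p from 2.49e-05 to 0.197. For Nmrk1 these were 0.56 to 0.86, with adjusted p from 0.00587 to 0.25. The replicate numbers were not taken as pairs: deviations of same-numbered libraries correlated at -0.0658, -0.0143 and 0.0697. The replicate block gave Nampt 1.02 (adjusted p = 0.123), and with it the calls of Foxo1 (adjusted p = 0.075) and Nudt12 (adjusted p = 0.0893) were lost. With 3 libraries a group, planted 1.5-fold changes were mostly missed in the simulation, so the uncalled genes are not shown to be alike.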
